A study of Bos taurus with 33 samples.

Results

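The genes described here encode the secreted and membrane-bound enzymes that cut extracellular matrix and the proteins that hold such enzymes in check. They are 70 bovine genes, of 17543 in the series, whose symbol starts with ADAMTS, MMP, TIMP or SERPIN, joined between the tables by Ensembl identifier. There are 19 ADAMTS genes, 4 ADAMTS-like (ADAMTSL) genes, 14 MMP genes, 4 TIMP genes and 29 SERPIN genes. The series holds RNA-seq of pooled oocytes and of pooled cumulus cells (CC), the somatic cells around the oocyte, from pre-ovulatory follicles of suckled postpartum beef cows (Bos taurus). Every cow received GnRH and later prostaglandin F2 alpha to synchronize follicle growth. Follicles of cows without estrus were called small (11.7 mm or less) or large (12.7 mm or more) and met a gonadotropin surge induced by a second GnRH injection, whereas follicles of cows in estrus (11.7 to 14.0 mm) were called spontaneous, met the cow's own surge and received no second injection. Complexes were collected about 23 h after that injection or estrus per the protocol, although another label gives about 20 h. Small and large follicles therefore differ in size under the same kind of surge, whereas spontaneous follicles differ from both in estrus, the source of the surge and size, which cannot be told apart.

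As background, an oocyte and its CC lie in a matrix of hyaluronan, versican and linking proteins that the CC build after the gonadotropin surge, and the matrix must be reshaped for the complex to expand and for the follicle wall to open at ovulation. Members of the ADAMTS family cut proteoglycans such as versican, and matrix metalloproteinases (MMPs) cut collagens, laminins and other matrix proteins. Tissue inhibitors of metalloproteinases (TIMPs) bind MMPs and some ADAMTS enzymes. Serpins mostly trap serine proteases such as plasmin and its activators, although some serpins carry hormones or fold collagen and inhibit no protease.

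Small and large follicles gave 6 oocyte pools and 6 CC pools each, and spontaneous follicles 4 and 5. This makes 16 oocyte and 17 CC libraries, each from 4 cumulus-oocyte complexes. Per the paper, each CC pool held the cells around the oocytes of a matching oocyte pool, so the cell types are not independent material. An oocyte pool was removed there before sequencing for low cDNA. Levels are given as deposited, in CPM (reads of a gene per 1000000 reads on all genes), scaled separately in the table of each cell type, so that levels of oocytes and CC were set side by side without a test. CPM is not divided by transcript length, so levels of different genes are not ranked. Reads on genes numbered 7664375 to 17934916 per oocyte library and 1911600 to 5772431 per CC library. A gene without a read could still have had up to 0.391 CPM in oocytes and 1.57 CPM in CC, the worth of 3 reads, which covers counting error only. The largest follicle of each cow was aspirated, so each complex came from its own cow, and p-values measure the spread between pools. All 8 oocyte markers (such as GDF9 and ZP3) were retained in oocytes, with summed levels of 8645 to 13009 CPM. Only 4 of them were listed by symbol in CC (GDF9, ZP2, NLRP5 and OOEP), with 0 retained. These 4 summed to 1.05 to 13.7 CPM there, and the others could not be read in CC. In CC all 10 cumulus and granulosa markers were retained. One library stood apart. CC of spontaneous replicate 2 had 2117 CPM of COL1A2 and 218 CPM of COL3A1, collagens of fibroblasts and theca, against at most 40.8 and 24.3 CPM in the other 16 CC pools. ACTA2 was also highest there (38.0 CPM), whereas other theca and stroma markers did not follow. COL1A1 had 374 CPM there (112 to 449 CPM over all CC pools), and INSL3 had 176 CPM, its lowest spontaneous value.

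Fewer of these genes were found at a working level than of transcripts in general. A gene was retained for testing where 4 oocyte pools or 5 CC pools, or more, reached 5 CPM. In oocytes 17 of 59 listed members were retained (28.8%, against 61.9% of all listed transcripts), and in CC 25 of 65 (38.5%, against 59.8%). Both cell types retained 11 members, namely ADAMTS6, ADAMTS7, ADAMTS9, ADAMTSL1, MMP15, TIMP1, TIMP2, SERPINA14, SERPINB6, SERPINE2 and SERPINH1. Oocytes alone retained 6 (ADAMTS4, ADAMTS12, ADAMTS18, MMP25, SERPINA6 and SERPINB5) and CC alone 14. The other 39 members were retained in neither cell type. By family, CC retained 6 of 14 listed MMPs and oocytes 2 of 11, whereas for ADAMTS genes the counts were 5 of 17 in CC and 6 of 16 in oocytes. CC retained 3 of 4 TIMPs and 9 of 27 serpins, and oocytes 2 of 4 TIMPs and 6 of 25 serpins.

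Several enzymes best known from ovulation stayed below the filter at this time. The gelatinase MMP9 reached at most 3.45 CPM in any CC pool and 1.55 CPM in any oocyte pool. The versican-cutting enzymes ADAMTS5 and ADAMTS20 reached at most 2.72 and 2.34 CPM in CC, and 1.48 and 5.83 CPM in oocytes. The gelatinase MMP2 had 49.5 CPM in CC of spontaneous replicate 2, the pool with high COL1A2, and at most 3.34 CPM in the other 16 CC pools. In the same pool MMP19 had 50.5 CPM, against 3.14 to 19.4 CPM in the other CC pools. TIMP3, an inhibitor held in the matrix, had its highest CC value there too, at 26.7 CPM against 3.71 to 21.1 CPM elsewhere. The part of the material with high COL1A2 in these 3 values was not tested. None of the other members that failed the CC filter had a mean above that of MMP2 (3.53 CPM).

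CC and oocytes differed in which members they held. Among 54 members listed in both tables, every CC pool was above every oocyte pool for 15 (ADAMTS1, ADAMTS3, ADAMTS9, MMP14, MMP16, MMP17, MMP23B, TIMP1, TIMP2, SERPINB6, SERPINB8, SERPINE2, SERPINF2, SERPING1 and SERPINH1). The background of that pattern over all 14980 transcripts listed in both tables was 10.6%. The reverse held for 3 members, ADAMTS12, MMP25 and SERPINA6, against a background of 17.5%. Because each table has its own scale, these orders are descriptions. The plot of mean CPM in both cell types shows these members on either side of the line of equal values.

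**Figure D1:**
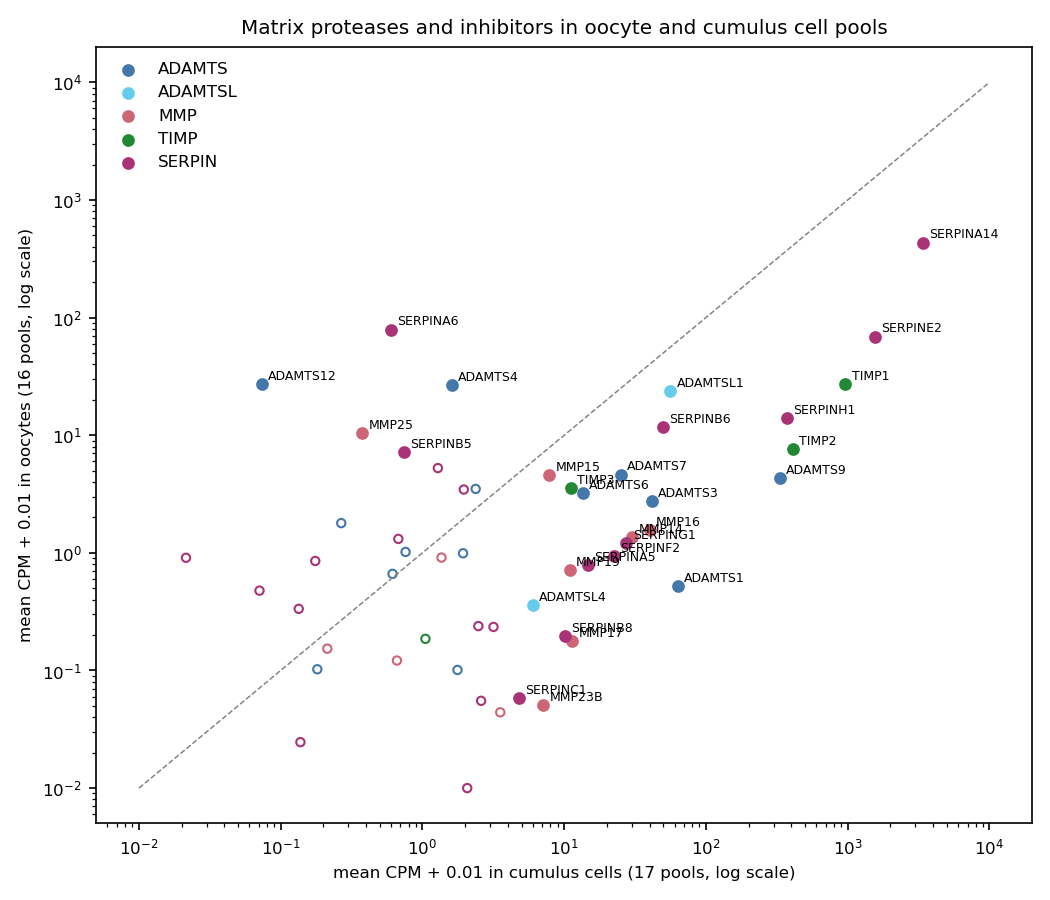
Each point is 1 of 54 members listed in both tables, with its mean CPM + 0.01 over 17 CC pools on the x axis and over 16 oocyte pools on the y axis, both on log scales. Filled and named points passed the filter in at least 1 cell type, open points in neither, and the dashed line marks equal values. ADAMTS12 (27.2 CPM in oocytes, 0.0639 in CC) and SERPINA6 (79.1 and 0.593) lie far above the line, and ADAMTS1 (0.510 and 63.4) far below it.

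Oocytes carried a small set of their own. SERPINA6, which encodes the corticosteroid-binding globulin, a serpin that carries glucocorticoids, had 34.6, 67.3 and 126 CPM (lowest, median and highest) in small, 44.1, 90.6 and 129 CPM in large and 110, 43.9, 53.2 and 84.9 CPM in spontaneous oocyte pools. In CC it stayed at or below 3.71 CPM. The classifications overlapped widely and all 16 oocyte pools were above all CC pools.

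ADAMTS12, a protease of cartilage matrix, had 7.44, 26.8 and 54.9 CPM in small, 13.1, 24.8 and 27.5 CPM in large and 29.7, 16.8, 52.9 and 41.5 CPM in spontaneous oocyte pools, whereas CC had reads in 3 of 17 pools and at most 0.441 CPM. From large to spontaneous its log2 fold change was 0.50 (SE 0.418, nominal p = 0.24 in limma, exact permutation p = 0.143). Its classifications overlapped in all comparisons. ADAMTS18, listed in the oocyte table but not in the CC table, had 17.7, 37.1 and 67.3 CPM in small, 13.7, 28.2 and 62.1 CPM in large and 14.3, 32.0, 58.3 and 62.2 CPM in spontaneous oocyte pools. Its spread was as wide within each classification as across them. The membrane-anchored MMP25 ranged from 2.43 to 26.1 CPM over the 16 oocyte pools, and reached 0.923 CPM at most in CC.

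ADAMTS4, a proteoglycan-cutting enzyme usually described in granulosa and CC, had higher CPM in oocytes here. It had 11.2, 24.4 and 53.4 CPM in small, 2.62, 31.1 and 56.2 CPM in large and 14.1, 14.6, 45.3 and 9.53 CPM in spontaneous oocyte pools. In CC its highest value was 5.85 CPM, in small replicate 2, and 13 of 17 pools had reads. The ranges of the 2 cell types met, since large oocyte replicate 6 lay at 2.62 CPM. In CC the mean was 1.06 CPM in small, 1.03 CPM in large and 2.92 CPM in spontaneous pools, below the filter and not tested.

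SERPINB5 (ENSBTAG00000002019) encodes maspin, a serpin known as a suppressor of tumor cell invasion that inhibits no serine protease in the usual way. It was the one member with 2 classifications that did not overlap, small and spontaneous oocytes. Small oocyte pools had 0, 0.740 and 5.09 CPM (lowest, median and highest). Large oocyte pools had 0.0923, 7.21 and 17.9 CPM. Spontaneous oocyte pools had 10.8, 18.8, 11.4 and 19.0 CPM. Every spontaneous pool was above every small pool, whereas the large pools fell into 3 at or below 2.45 CPM and 3 at or above 12.0 CPM. The means were 1.41 ± 1.93 (SD, n = 6), 7.60 ± 7.43 (SD, n = 6) and 15.0 ± 4.48 CPM (SD, n = 4).

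From small to spontaneous the mean of SERPINB5 rose 10.6-fold, with a log2 fold change of 3.001 on the log2(CPM + 1) scale (SE 0.745, nominal p = 0.000382 in limma, adjusted p = 0.755 over all transcripts, two-sided exact permutation p = 0.00952). Permutation tests compared mean CPM, and 0.00952 is the smallest p that 6 against 4 pools allow in this two-sided test. A call here is a nominal limma p of 0.01 or less, which in comparisons with small oocytes had also to be met without small replicate 3. SERPINB5 was the 1 member of 17 called in small versus spontaneous oocytes, where 0.774% of all transcripts were called and 0.526% as higher in spontaneous. It was also the only member whose classifications did not overlap, in this or any other comparison. The share of all transcripts was 0.903% in this one, and 0.258 and 0.913% in small versus large and large versus spontaneous oocytes. In CC the share was 0.247, 1.16 and 0.865% (small versus large, small versus spontaneous, large versus spontaneous). Over all 6 comparisons together, 1 such member lies close to these shares. Between small and large the log2 fold change was 1.46 (SE 0.762, nominal p = 0.0655 in limma, exact permutation p = 0.0909), and between large and spontaneous 1.54 (SE 0.753, nominal p = 0.0506, exact permutation p = 0.162), so the intermediate large pools were not told apart from either. In CC, SERPINB5 reached 5.56 CPM in 1 pool and had no reads in 12 of 17.

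No other member was called in oocytes. With limma 0 of 17 were called in small versus large (0.655% of all transcripts) and 0 of 17 in large versus spontaneous (0.943%), and in both comparisons 0 members had a nominal p under 0.05 and edgeR and DESeq2 called 0. In small versus large the next smallest p-values were those of ADAMTS6 (0.769 and 4.29 CPM, nominal p = 0.101, exact permutation p = 0.18) and SERPINH1 (19.6 and 9.86 CPM, nominal p = 0.142, exact permutation p = 0.242). In small versus spontaneous they were those of TIMP1 (21.2 and 37.5 CPM, nominal p = 0.0867, exact permutation p = 0.381) and ADAMTS6 (0.769 and 5.29 CPM, nominal p = 0.12, exact permutation p = 0.124). ADAMTS7 had 6.42 CPM in large and 2.32 CPM in spontaneous oocyte pools (nominal p = 0.245, exact permutation p = 0.143). The groups overlapped for each of these genes. The median log2 fold change of the 17 members was 0.22, 0.22 and 0.13 in the 3 comparisons in this order, beside 0.046, 0.048 and 0.0078 for all transcripts.

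**Figure D2:**
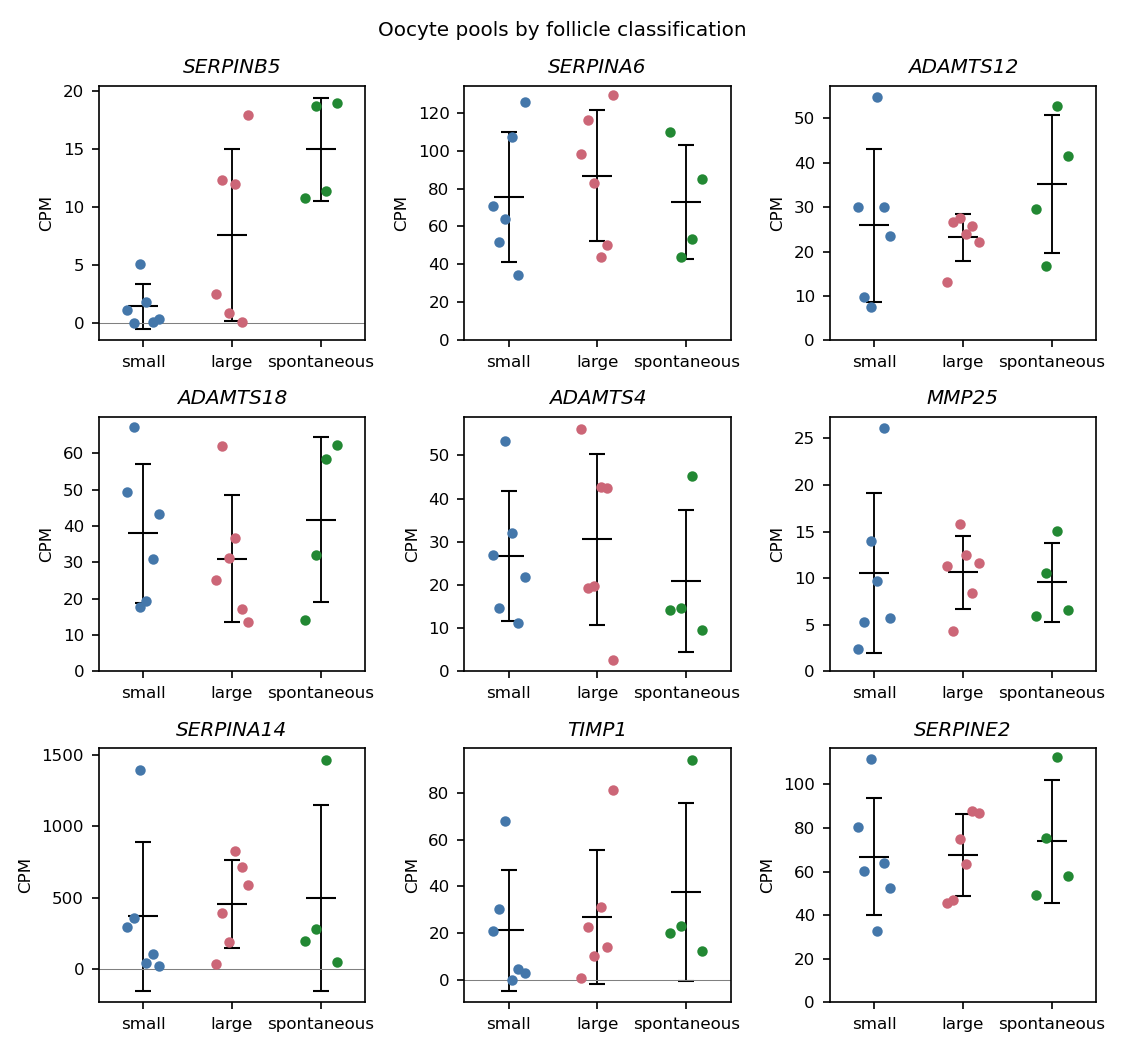
Points are single oocyte pools (6 small, 6 large, 4 spontaneous) in CPM on linear axes, with the black bar at the mean and whiskers of 1 SD, which can reach below 0. SERPINB5 is 10.8 CPM or more in all 4 spontaneous pools and 5.09 CPM or less in all 6 small pools, whereas the other 8 members overlap between classifications. SERPINA14 and TIMP1 each have 1 spontaneous pool, replicate 3, far above the rest (1470 and 94.1 CPM).

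Several members that CC also held varied widely between oocyte pools. SERPINA14, a uterine serpin in the nomenclature, had 17.3, 199 and 1397 CPM in small, 34.2, 488.5 and 830.2 CPM in large and 196, 279, 1470 and 49.8 CPM in spontaneous oocyte pools, an 84.9-fold range, whereas SERPINA6 had a 3.74-fold range. TIMP1 ranged from 0.164 to 94.1 CPM over the 16 oocyte pools, and SERPINH1 from 0.297 to 43.3 CPM. SERPINE2 was more even, from 32.7 to 113 CPM. Small replicate 3 was the highest small oocyte pool for 8 of the 11 members retained in both cell types (16.1% of all retained transcripts), and spontaneous replicate 3 the highest spontaneous pool for 7 of 11 (29.3%). For the 6 members retained in oocytes alone the counts were 2 and 3.

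Some cumulus transcripts were high in the same oocyte pools. Of 10 cumulus and granulosa markers, 5 were highest of their classification in small replicate 3, 5 in spontaneous replicate 3 and 5 in large replicate 6, among them INHA, INHBA and TNFAIP6 each time. Others were not, such as CYP19A1, at 0 CPM in small replicate 3, 0.0759 CPM in spontaneous replicate 3 (the lowest spontaneous value) and 1.78 CPM in large replicate 6. TNFAIP6, a hyaluronan-linking protein of CC, had 57.1 CPM in small replicate 3 against 0.947 to 24.99 CPM in the other small oocyte pools, 37.8 CPM in spontaneous replicate 3 against 3.68 to 19.6 CPM, and 116 CPM in large replicate 6 against 0.594 to 25.5 CPM. INHA, the inhibin alpha subunit, had 88.7, 92.5 and 137 CPM in those 3 pools. Large replicate 6 was the highest large oocyte pool for 4 of the 11 members retained in both cell types (19.9% of all retained transcripts). They were TIMP1 (81.2 CPM), TIMP2 (35.2 CPM), SERPINH1 (21.7 CPM) and ADAMTS9 (18.2 CPM). For the 6 members retained in oocytes alone the count was 2. Over all oocyte pools 7 of 10 cumulus and granulosa markers were retained, with none at 0 in every pool, and they summed to 217 to 636 CPM in small and large pools other than large replicate 6 (927 CPM), and to 388 to 609.97 CPM in spontaneous pools. The mean in oocytes as a percentage of that in CC was 1.36 to 255% for these 10 markers (median 5.61%), with HAS2, which oocytes held at the higher level, at the top. For the 11 members retained in both cell types it was 1.30% for ADAMTS9, 1.88% for TIMP2, 2.84% for TIMP1, 3.73% for SERPINH1, 4.45% for SERPINE2, 12.7% for SERPINA14, 18.5% for ADAMTS7, 23.5% for SERPINB6, 23.7% for ADAMTS6, 42.4% for ADAMTSL1 and 58.3% for MMP15. The part of cumulus RNA in these oocyte values was not tested.

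In CC no ADAMTS, ADAMTSL or MMP member was called in any comparison. ADAMTS9, which cuts versican and aggrecan, had 111, 282 and 481 CPM in small, 217, 294 and 507 CPM in large and 295, 272, 475, 301 and 473 CPM in spontaneous CC pools. From small to spontaneous its log2 fold change was 0.40 (SE 0.316, nominal p = 0.225 in limma, exact permutation p = 0.442), within the spread of each classification. ADAMTS1, a progesterone receptor target that cuts versican at ovulation, had 17.3, 69.1 and 72.1 CPM in small, 4.63, 63.0 and 104 CPM in large and 54.8, 55.2, 92.4, 82.6 and 64.6 CPM in spontaneous CC pools. The 2 pools below 20 CPM were small replicate 3 and large replicate 2, and the other 15 lay between 44.5 and 104 CPM. The same 2 pools had the lowest CC values of PTGS2, the prostaglandin synthase that CC switch on after the surge. It had 650.2 CPM in small replicate 3 and 153 CPM in large replicate 2, against 943 to 4167 CPM in the other 15. Among other cumulus markers, PTX3 was lowest there too (65.4 and 114 CPM), whereas HAS2 (39.2 and 49.5 CPM) and INHA (1868 and 3512 CPM) were not. These 2 libraries also had the fewest reads on genes in CC (1911600 and 2809623). Causes of the low values were not tested.

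MMP14, a membrane-bound MMP that activates proMMP2, had 9.94, 25.4 and 74.3 CPM in small, 13.1, 28.9 and 44.5 CPM in large and 20.1, 30.6, 34.8, 24.0 and 36.6 CPM in spontaneous CC pools. Its means of 31.1, 29.9 and 29.2 CPM were close to each other beside SDs of 23.0, 11.2 and 7.07 CPM. MMP16, another membrane-bound MMP, ranged from 24.5 to 61.3 CPM over all CC pools, ADAMTS3, a procollagen-processing enzyme, from 14.6 to 59.1 CPM and MMP17 from 5.23 to 16.04 CPM. ADAMTS6 had 49.4 CPM in large replicate 5 and 3.27 to 19.4 CPM in the other 16 CC pools. Summed over listed genes, ADAMTS levels averaged 447, 494 and 523 CPM in small, large and spontaneous CC pools, and MMP levels 109, 114 and 130 CPM, with SDs of 113 to 175 and 14.5 to 47.5 CPM.

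The members called in CC were TIMP1, TIMP2 and SERPINA14. TIMP2 (ENSBTAG00000010899), an inhibitor of MMP2 and MMP14 that also takes part in the activation of proMMP2, had 146, 271 and 835 CPM (lowest, median and highest) in small CC pools. In large CC pools it had 114, 223 and 585 CPM. In spontaneous CC pools it had 524, 697, 446, 913 and 605 CPM. All 5 spontaneous pools were above 5 of 6 small and 5 of 6 large pools, and small replicate 5 and large replicate 2 fell within the spontaneous range. The means were 349 ± 249.5, 277 ± 178 and 637 ± 180.4 CPM (SD, n = 6, 6 and 5).

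From large to spontaneous TIMP2 rose 2.30-fold, with a log2 fold change of 1.39 (SE 0.334, nominal p = 0.00065 in limma, adjusted p = 0.515, two-sided exact permutation p = 0.013). Its adjusted p lay between 0.0187 and 0.939 over the alternatives, and was 0.0187 without large replicate 2. DESeq2 gave a nominal p of 0.0145 and did not call it. TIMP2 was the 1 member of 25 called in this comparison, where 1.66% of all transcripts were called and 1.45% as higher in spontaneous. From small to spontaneous TIMP2 rose 1.83-fold, with a log2 fold change of 1.06 (SE 0.329, nominal p = 0.00479 in limma, adjusted p = 0.39, two-sided exact permutation p = 0.0649). On the linear scale of the permutation test, small replicate 5 weighs more than on the log2 scale. This call was kept under 8 of 20 alternatives. It was lost without small replicate 1, 4 or 6, without spontaneous replicate 2 or 4, with no filter, with median-of-ratios scaling, with all 3 classifications in 1 fit and with the replicate number as a block. Both count tests lost it too, with log2 fold changes of 0.66 in edgeR and in DESeq2.

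TIMP1 (ENSBTAG00000005043), a soluble inhibitor of most MMPs, had 405, 559 and 1309 CPM in small CC pools. In large CC pools it had 691, 759 and 1916 CPM. In spontaneous CC pools it had 1166, 1867, 1112, 838 and 1470 CPM. Of the small pools, 4 of 6 were below every spontaneous pool, and large replicate 2 was the highest of all 17. From small to spontaneous the mean rose from 702 ± 340.5 to 1290.4 ± 393 CPM (SD, n = 6 and 5), a log2 fold change of 0.95 (SE 0.276, nominal p = 0.00307 in limma, adjusted p = 0.356, two-sided exact permutation p = 0.0303). Between large and spontaneous the log2 fold change was 0.50 (nominal p = 0.0674 in limma, exact permutation p = 0.234), and the gene was called in that comparison only without large replicate 2. Without spontaneous replicate 2, the pool with high COL1A2, the small to spontaneous change was 0.80 with a nominal p of 0.0119 in limma, no longer a call. TIMP3 remained at 3.71 to 26.7 CPM in CC and was not called in any comparison, and TIMP4 was not retained.

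SERPINA14 (ENSBTAG00000007392, without a symbol in the CC table) had 1311, 2335 and 3613 CPM in small CC pools. In large CC pools it had 2165, 3935 and 6476 CPM, and in spontaneous CC pools 5155, 3840, 3892, 2990.1 and 4044 CPM. All 5 spontaneous pools were above 5 of 6 small pools. From small to spontaneous the mean rose from 2383 ± 815 to 3984 ± 773 CPM (SD, n = 6 and 5), a log2 fold change of 0.79 (SE 0.244, nominal p = 0.00451 in limma, adjusted p = 0.39, two-sided exact permutation p = 0.00866). From small to large it was 0.69 (SE 0.287, nominal p = 0.0265 in limma, exact permutation p = 0.0779), and the large pools spanned most of the range of both others. The small to spontaneous call was lost without small replicate 1, 4 or 5 and without spontaneous replicate 1.

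TIMP1, TIMP2 and SERPINA14 were the 3 of 25 members called in small versus spontaneous CC, where 2.38% of all transcripts were called and 2.28% were called as higher in spontaneous. The scale bears on this comparison. In CPM the median log2 fold change of all 9712 CC transcripts was 0.16 in small versus spontaneous and 0.11 in large versus spontaneous, whereas with median-of-ratios scaling it was 0.011 and 0.014. With that scaling 0 members were called in small versus spontaneous CC, and the log2 fold changes were 0.79 for TIMP1, 0.90 for TIMP2 and 0.64 for SERPINA14. Counts recovered from the CPM gave 0 calls in edgeR and 0 in DESeq2. The median of the 25 members was 0.30, beside 0.16 for all transcripts, and 0.14 with median-of-ratios scaling. From large to spontaneous it was 0.11, beside 0.11, and 0.0058 with that scaling.

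SERPINE2, protease nexin 1, an inhibitor of thrombin and plasminogen activators, had 1015, 1244 and 2006 CPM in small, 813, 1433 and 1948 CPM in large and 2671, 1344, 1536, 2299.9 and 2212 CPM in spontaneous CC pools. In spontaneous replicates 1, 4 and 5 it was above all other CC pools. Its log2 fold change was 0.61 from small to spontaneous (SE 0.221, nominal p = 0.0134 in limma, exact permutation p = 0.0346) and 0.56 from large (SE 0.247, nominal p = 0.037, exact permutation p = 0.0779), neither called. It was called in small versus spontaneous without small replicate 2 (0.74, adjusted p = 0.339 in limma) and without spontaneous replicate 2 (0.74, adjusted p = 0.41), and its adjusted p lay between 0.339 and 0.847 over all alternatives.

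SERPINH1, the collagen chaperone HSP47, had 223, 268 and 489 CPM in small, 332, 374 and 499 CPM in large and 527, 386, 403, 387 and 454 CPM in spontaneous CC pools. Of the small pools, 4 of 6 were below every other CC pool. Its log2 fold change from small to spontaneous was 0.52 (SE 0.206, nominal p = 0.0211 in limma, exact permutation p = 0.0563), a call only without small replicate 6, also in the fit with the replicate number as a block, where that pool has no partner and drops out. SERPINA5, the protein C inhibitor, had 2.62, 8.15 and 21.2 CPM in small and 10.4, 27.5, 19.4, 15.1 and 27.6 CPM in spontaneous CC pools, a log2 fold change of 1.27 (SE 0.472, nominal p = 0.0151 in limma, exact permutation p = 0.0563), a call only without small replicate 4 or 5. SERPING1, the inhibitor of complement C1, had 25.1, 24.7 and 33.7 CPM on average in small, large and spontaneous CC pools and did not pass the test. SERPINB6 was the most even CC member, from 34.9 to 78.0 CPM over 17 pools, a 2.23-fold range.

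Between small and large CC pools 0 of 25 members were called with limma, where 0.813% of all transcripts were called. The count at a nominal p under 0.05 was 2 (SERPINA14 and ADAMTS6), and edgeR and DESeq2 called 0. ADAMTS6 averaged 9.78 CPM in small pools (SD 4.41) and 19.6 CPM in large pools (SD 14.7), and its log2 fold change was 0.84 (SE 0.372, nominal p = 0.0362 in limma, exact permutation p = 0.0584), with large replicate 5 at 49.4 CPM. SERPINH1 came next, with a log2 fold change of 0.38 (SE 0.200, nominal p = 0.074 in limma, exact permutation p = 0.152), a call only without small replicate 6. Between large and spontaneous CC pools MMP23B, a membrane-anchored MMP, was among the 3 members with the smallest p, with a log2 fold change of −0.90 (SE 0.409, nominal p = 0.0413 in limma, exact permutation p = 0.0736), a call only without spontaneous replicate 2. No member passed an adjusted p of 0.05 with all pools in any of the 6 comparisons, and the smallest was 0.356, that of TIMP1 in small versus spontaneous CC. The plots of CC values by pool and of log2 fold changes show the overlap of most members beside the inhibitors described above.

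**Figure D3:**
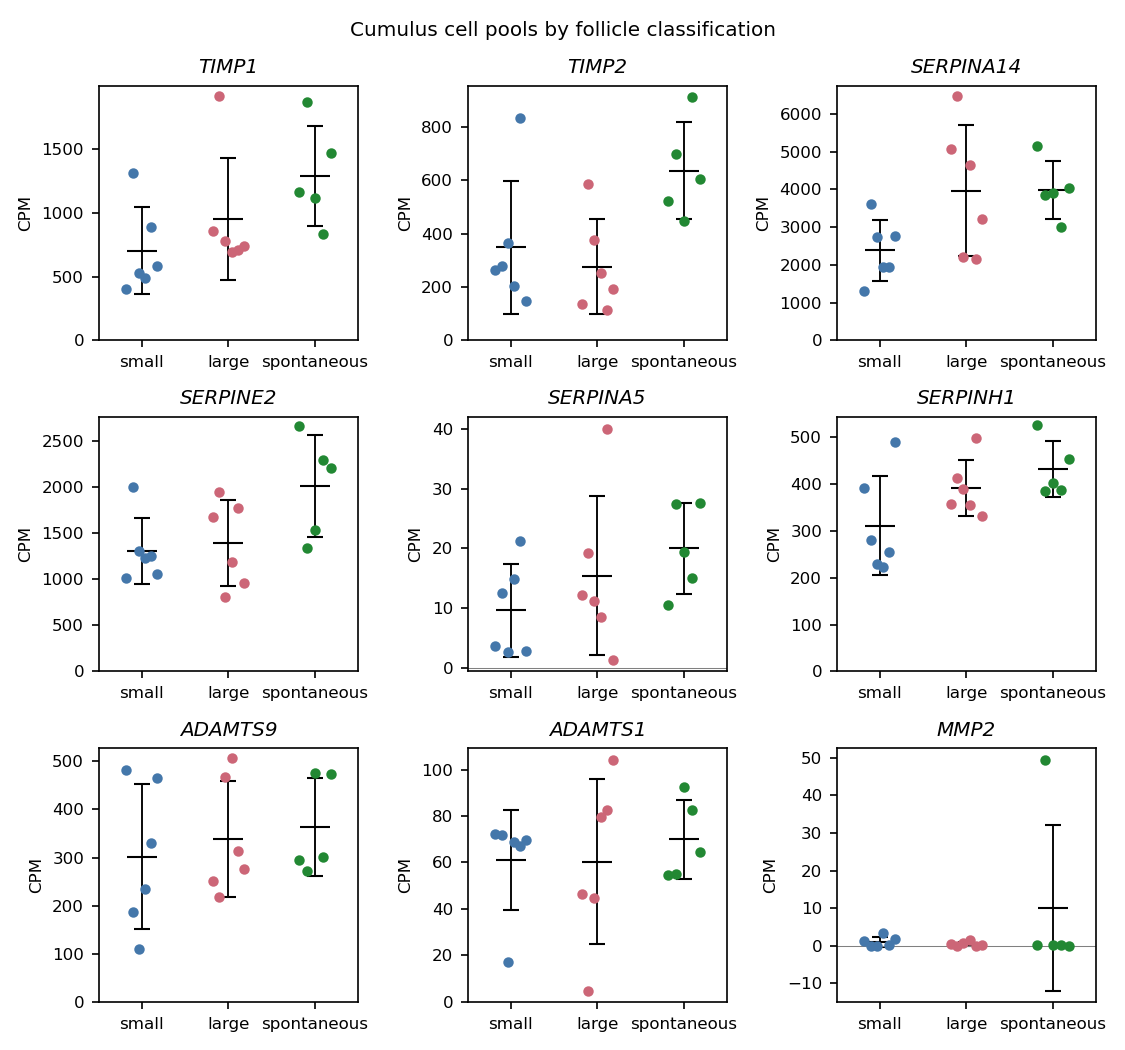
Points are single CC pools (6 small, 6 large, 5 spontaneous) in CPM on linear axes, with the black bar at the mean and whiskers of 1 SD, which can reach below 0. TIMP2 is 446 CPM or more in all spontaneous pools, which only small replicate 5 (835) and large replicate 2 (585) reach elsewhere, and MMP2 is low but for 49.5 CPM in spontaneous replicate 2.

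**Figure D4:**
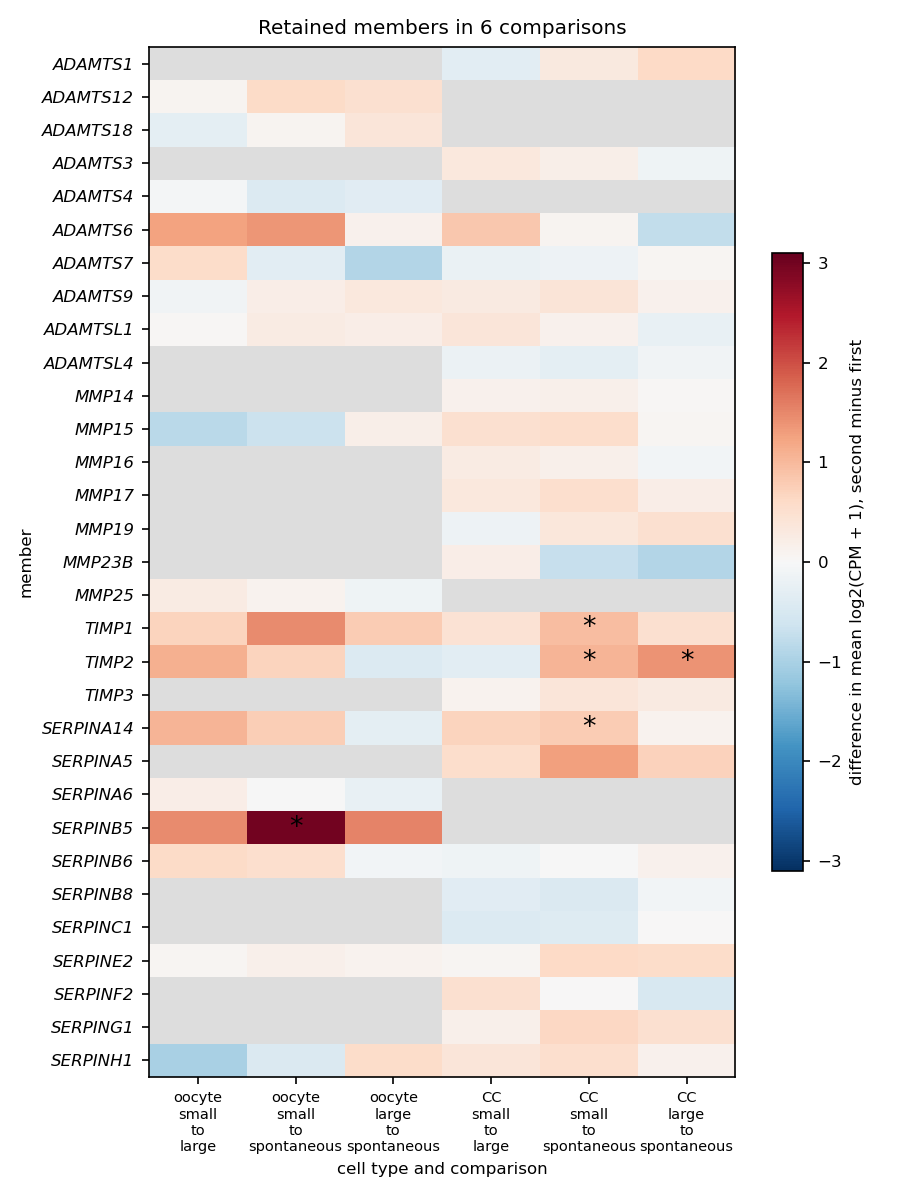
Rows are the 31 members retained in at least 1 cell type, columns the 6 comparisons, and color the difference in mean log2(CPM + 1), second classification minus first. Grey cells were not retained and stars mark calls at a nominal p of 0.01 or less. There are 5 stars, for SERPINB5 (3.001) in oocytes and for TIMP1 (0.95), SERPINA14 (0.79) and TIMP2 (1.06 and 1.39) in CC, all toward spontaneous.

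Markers of CC and of other cells were measured beside these calls. Of the 10 cumulus and granulosa markers, 9 were higher in spontaneous than in small CC pools in mean log2(CPM + 1). The count was also 9 for spontaneous above large CC pools. Higher in spontaneous was also the direction of the TIMP calls and, in CPM, of 71.9 and 65.6% of all transcripts. In mean CPM, FSHR (60.6 and 50.4), PTGS2 (1959 and 1914) and PTX3 (411 and 205) were lower in spontaneous than in small CC pools. In these 2 comparisons 0 and 2 of the markers were called, beside 2.38 and 1.66% of all transcripts. They summed to 4092 to 7891 CPM in small, 4347 to 10714 CPM in large and 6033 to 11806 CPM in spontaneous CC pools. Summed levels of 10 white blood cell markers, 7 of them retained, were 19.9 to 105 CPM in small, 23.8 to 191 CPM in large and 37.8 to 163 CPM in spontaneous CC pools, and 0 of them were called in any CC comparison. Summed theca and stroma markers were 237 to 1187 CPM in small, 552 to 890.1 CPM in large and 559 to 2924 CPM in spontaneous CC pools, with the highest in spontaneous replicate 2. Small replicate 5, which had the highest small TIMP2, also had the highest small sum of theca and stroma markers (1187 CPM). Among spontaneous pools, replicate 4 had the highest TIMP2 and the next highest of these sums (1306 CPM). Most of both sums was INSL3, a theca cell hormone (897 and 1162 CPM). COL1A1 was highest of the small pools in replicate 5 (264 CPM) and lowest of the spontaneous pools in replicate 4 (137 CPM). CYP17A1, also on the theca and stroma list, had 0 and 0.363 CPM in these 2 pools and at most 0.781 CPM in any CC pool. ACTA2 had 11.3 and 0.907 CPM there, the latter its lowest spontaneous value. In large pools the order was the opposite, since large replicate 2 had the highest large TIMP2 and the lowest large sum (552 CPM). Whether other cells had a part in the TIMP2 values was not tested. Without spontaneous replicate 2 the large to spontaneous change of TIMP2 was 1.34 and still a call (adjusted p = 0.599 in limma), and that of small to spontaneous was 1.02 and no longer a call (adjusted p = 0.525, and 0.0939 to 0.863 over all alternatives). A lower share of a cell type and less RNA per cell cannot be told apart in pools.

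Enzymes, activators and substrates that work with these members were read from a list of 40 genes. Oocytes retained 24 of them and called 0 in each of the 3 comparisons with limma, with 1 at a nominal p under 0.05 in each. CC retained 30. In small versus large CC, where 0.813% of all transcripts were called, the 1 call was VCAN, the versican that ADAMTS enzymes cut, with 12999 CPM in small (SD 3582) and 20998 CPM in large pools (SD 4630.3), where the log2 fold change was 0.71 (SE 0.246, nominal p = 0.00912 in limma, adjusted p = 0.999, exact permutation p = 0.00649). In small versus spontaneous CC 4 of 30 were called, all higher in spontaneous, beside 2.38% of all transcripts, whose median log2 fold change in CPM was 0.16. They were BSG, an inducer of MMPs (258 and 359 CPM), the shedding proteases ADAM9 (77.4 and 115 CPM) and ADAM17 (55.3 and 80.4 CPM), and THBS1, thrombospondin 1 (261 and 912 CPM). The log2 fold changes were 0.50 for BSG, 0.57 for ADAM9 and 0.54 for ADAM17, and 2.15 for THBS1. All 4 overlapped between classifications, and their adjusted p lay between 0.295 and 0.418 in limma. THBS1 had SDs of 286 and 769 CPM (exact permutation p = 0.0433). In large versus spontaneous CC 2 were called, beside 1.66% of all transcripts, also higher in spontaneous, the protease inhibitor TFPI2 (1.52 and 17.1 CPM) and the laminin chain LAMB1 (66.7 and 134 CPM). Both overlapped between classifications. TFPI2 had SDs of 1.53 and 23.4 CPM (adjusted p = 0.515 in limma, exact permutation p = 0.00866). LAMB1 had SDs of 33.6 and 55.9 CPM (adjusted p = 0.567 in limma, exact permutation p = 0.0563). Tissue plasminogen activator PLAT, a target of SERPINE2, averaged 497, 496 and 468 CPM in small, large and spontaneous CC pools, and its receptor-bound counterpart PLAU 13.8, 17.2 and 18.5 CPM, neither called.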

How the data were processed

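RNA of 16 oocyte pools and 17 CC pools was amplified to cDNA (Ovation system) and sequenced by the authors as single-end reads, which they trimmed and aligned with Hisat2 to the bovine assembly UMD3.1. FeatureCounts gave their counts per Ensembl gene. The submitters' processing notes also name edgeR and DESeq2. The deposited unit is CPM, which the authors made by dividing counts by the reads on genes of each pool. Column names matched pool labels, and 0 columns were unmatched. In every pool 100% of values were whole multiples of 1 read, so reads were recovered. The tolerance was 0.01 read for low counts and grew with the count for high ones. Amplification can favor some transcripts, and PCR copies are not independent molecules.

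The members and lists were chosen with earlier results of these data known. Transcripts with 5 CPM in at least 4 oocyte or 5 CC pools were tested with limma (trend) on log2(CPM + 1), between 2 classifications, two-sided, without covariates, and p-values were adjusted by Benjamini-Hochberg over all of them. Fold changes on this scale understate those of low genes. Named members are those called, the 3 with the smallest p in each comparison, the 6 with most reads in each cell type, and 15 with a described part in the cumulus matrix. One gene is not reported here and is in no count of members. MMP11, MMP16, MMP17, MMP19, MMP25, ADAMTS3, TIMP4 and SERPINB6 were named after their values were seen. In oocyte comparisons with small pools, a call had to hold without small replicate 3, as in the paper. Exact permutation tests, two-sided, compared mean CPM.

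Alternatives were a pseudocount of 0.1, other filters, median-of-ratios scaling, a fit of all 3 classifications, a replicate block, and edgeR quasi-likelihood and DESeq2 on recovered reads, and each pool left out. The limma, edgeR and DESeq2 tests were tried on simulated data first, at the main filter and scaling. The exact permutation tests and the other alternatives were not. R 4.3.3, limma 3.58.1, edgeR 4.0.16, DESeq2 1.42.0 and Python 3.11.15 were used. Coordinates and sequences are left out, since UMD3.1 was not used here.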

Additional observations from a re-analysis of the deposited data

Results flagged for a closer look

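Of 78 groups of 4 to 6 pools looked at for the named members, 14 held a pool far from the others by Dixon's criterion. Chance would give about 1 in 20 in independent groups of normal values. These groups share pools between members and are in CPM, so that rate cannot show an excess here. In oocytes, small replicate 3 was the highest small pool for SERPINA14 (1397 CPM, the next 357 CPM), SERPINB5 (5.09 CPM, the next 1.80 CPM) and ADAMTS6 (3.52 CPM, the next 0.568 CPM). Spontaneous replicate 3 was the highest spontaneous pool for SERPINA14 (1470 CPM, the next 279 CPM), TIMP1 (94.1 CPM, the next 23.2 CPM) and ADAMTS4 (45.3 CPM, the next 14.6 CPM). Large replicate 6 was the highest large pool for TIMP2 (35.2 CPM, the next 10.2 CPM) and ADAMTS9 (18.2 CPM, the next 3.19 CPM), and large replicate 1 the lowest for ADAMTS12 (13.1 CPM, the next 22.1 CPM).

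In CC the pools that stood apart were small replicate 3 for ADAMTS1 (17.3 CPM, the next 67.2 CPM), large replicate 5 for ADAMTS6 (49.4 CPM, the next 15.6 CPM), small replicate 2 for SERPINE2 (2006 CPM, the next 1310.4 CPM), large replicate 2 for TIMP1 (1916 CPM, the next 854 CPM) and small replicate 5 for TIMP2 (835 CPM, the next 366 CPM). Causes were not tested.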

How the results depend on the processing

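The single call in small versus spontaneous oocytes, SERPINB5, was kept under each alternative run, with log2 fold changes of 2.66 to 4.43. In small versus spontaneous CC the 3 calls became 0 with no filter, with median-of-ratios scaling, with edgeR, with DESeq2 and with both together, and 1 to 4 with single pools left out, the lowest without small replicate 1 (TIMP1 alone). In large versus spontaneous CC the 1 call became 2 with no filter or with a mean of at least 1 CPM (MMP11 added), 0 with DESeq2 and with both count tests, and 1 to 2 with single pools left out, the highest without large replicate 2 (TIMP1 added) or spontaneous replicate 2 (MMP23B added). With single pools left out, small versus large gave 0 to 1 calls in oocytes (SERPINA14 without small replicate 3) and 0 to 1 in CC (SERPINH1 without small replicate 6, SERPINA14 without large replicate 3 or 5). At 1 CPM in as many pools, 33 members were retained in oocytes and 41 in CC, and at 5 CPM in every pool 5 and 16. Causes were not tested. No result reversed. Pools with the same number did not deviate together (correlations of −0.19 to 0.224, at most 1 pair over 0.1 per comparison), so the block pairs numbers only. It gave 3 calls in small versus spontaneous CC (SERPINH1 in place of TIMP2) and 1 in large versus spontaneous CC (TIMP2). Small and large replicate 6 have no spontaneous partner there and drop out, and the log2 fold change of TIMP2 from small to spontaneous was 0.86 with the block and 0.86 without small replicate 6. Of 422 values of single members under alternatives, 383 kept direction and side of the threshold, 29 lost a call and 10 gained one. Depth limits the CC table most, where 3 reads are worth up to 1.57 CPM.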
